A study of Mus musculus with 18 samples.

Results

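The integrated stress response and the unfolded protein response were followed here through 35 genes chosen by name, of the 23212 gene names in the merged annotation and the 12364 that were tested. A gene counted as measured where its summed FPKM (mapped fragments scaled by transcript length and library size) was at least 1 in at least 2 libraries, and all 35 listed genes met this. They were described in immortalized rela-/- mouse embryonic fibroblasts that had been given back mouse RelA, a subunit of the transcription factor NF-κB, by a pBABE-puro retrovirus. The 3 lines carried wild-type RelA, RelA(wt), a RelA changed at L449A and F473A in its TA2 activation domain, RelA(TA2), or a RelA changed at S276A, RelA(Ser276Ala). Each line was sampled unstimulated (0 h) and 1 h and 2 h after TNFα at 5 ng/ml, with 2 libraries per condition and 18 in all. All lines lack endogenous RelA and carry an introduced one, and the RelA(Ser276Ala) protein was described as less abundant than the others. Each mutant is represented by 1 line, so the mutation cannot be told apart from other differences between lines, and no mock-treated cultures at 1 h or 2 h were analysed here, so TNFα cannot be told apart from time and handling.

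In the integrated stress response, kinases such as PERK (Eif2ak3) and GCN2 (Eif2ak4) phosphorylate the initiation factor eIF2, which lowers general protein synthesis while favouring translation of a few mRNAs such as Atf4. ATF4 and its partner CHOP (Ddit3) then switch on genes for amino acid supply and for feedback, including Ppp1r15a, whose product GADD34 directs the phosphatase that removes the phosphate from eIF2. The unfolded protein response adds the sensors IRE1 (Ern1) and ATF6, which raise chaperones of the endoplasmic reticulum (ER) such as BiP (Hspa5). Poly(A) RNA libraries report mRNA levels only, so neither eIF2 phosphorylation, ATF4 translation nor Xbp1 splicing was measured.

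The promoters of 6 members are shown. Chac1, Trib3, Herpud1 and Ppp1r15a carry the main time course. Calr differed between lines, and Hspa5 did so only in recovered fragments, as given further on. Each promoter holds an element known from these pathways. Each runs 5′ to 3′ along the gene's own strand, from 250 bases before to 50 after the start site, from RefSeq on GRCm38.p6. Capitals mark matches to the amino acid response element TGATGNAA, the cyclic AMP response element (CRE) TGACGTCA, the ER stress response element (ERSE, CCAAT, 9 bases, CCACG), the related ERSE-II (ATTGG, 1 base, CCACG) or an NF-κB site (κB).
Chac1, chr2:119350992-119351291, plus strand: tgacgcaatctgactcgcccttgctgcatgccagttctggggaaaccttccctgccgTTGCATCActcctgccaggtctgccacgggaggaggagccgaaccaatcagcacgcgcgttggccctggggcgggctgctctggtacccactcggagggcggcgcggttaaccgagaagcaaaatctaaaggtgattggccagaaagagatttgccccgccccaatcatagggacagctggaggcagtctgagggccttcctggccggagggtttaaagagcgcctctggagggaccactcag
Trib3, chr2:152344011-152344310, minus strand: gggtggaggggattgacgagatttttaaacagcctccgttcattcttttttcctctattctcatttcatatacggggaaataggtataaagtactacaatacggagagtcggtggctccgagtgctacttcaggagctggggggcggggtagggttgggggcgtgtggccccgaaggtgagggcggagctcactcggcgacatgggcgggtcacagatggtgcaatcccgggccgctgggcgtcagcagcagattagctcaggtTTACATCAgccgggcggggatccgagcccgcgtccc
Herpud1, chr8:94386179-94386478, plus strand: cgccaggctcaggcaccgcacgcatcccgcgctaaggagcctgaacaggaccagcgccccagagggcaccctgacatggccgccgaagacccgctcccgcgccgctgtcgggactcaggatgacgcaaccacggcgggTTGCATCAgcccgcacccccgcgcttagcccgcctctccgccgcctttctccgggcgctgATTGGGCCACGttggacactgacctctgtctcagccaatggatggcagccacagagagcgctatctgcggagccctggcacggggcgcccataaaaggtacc
Ppp1r15a, chr7:45526219-45526518, minus strand: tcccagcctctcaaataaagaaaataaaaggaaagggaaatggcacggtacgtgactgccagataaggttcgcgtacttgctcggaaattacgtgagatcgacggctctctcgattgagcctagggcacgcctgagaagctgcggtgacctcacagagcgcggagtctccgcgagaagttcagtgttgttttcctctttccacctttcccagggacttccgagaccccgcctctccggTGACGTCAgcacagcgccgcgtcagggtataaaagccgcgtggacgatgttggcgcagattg
Hspa5, chr2:34771840-34772139, plus strand: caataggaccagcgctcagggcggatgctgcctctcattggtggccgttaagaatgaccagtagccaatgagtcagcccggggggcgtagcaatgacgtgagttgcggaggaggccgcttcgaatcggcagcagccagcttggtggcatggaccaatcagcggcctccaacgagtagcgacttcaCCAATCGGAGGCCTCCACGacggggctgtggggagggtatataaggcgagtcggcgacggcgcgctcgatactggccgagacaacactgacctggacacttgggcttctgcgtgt
Calr, chr8:84846882-84847181, minus strand: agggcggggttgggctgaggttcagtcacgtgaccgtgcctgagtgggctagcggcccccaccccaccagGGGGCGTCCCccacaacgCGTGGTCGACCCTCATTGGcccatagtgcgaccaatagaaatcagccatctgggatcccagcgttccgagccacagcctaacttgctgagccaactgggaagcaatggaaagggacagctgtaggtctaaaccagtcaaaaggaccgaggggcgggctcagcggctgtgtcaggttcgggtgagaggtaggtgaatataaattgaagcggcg
In Chac1 the match to the amino acid response element lay on the opposite strand and began 193 bases before the start site, in Trib3 it lay on the opposite strand 15 bases after it, and in Herpud1 it lay on the opposite strand 112 bases before it. Herpud1 also held ERSE-II 52 bases before the start, Ppp1r15a a CRE 12 bases before it, and Hspa5 an ERSE 65 bases before it. Calr held an ERSE on the opposite strand from 162 bases before the start and a κB match, found on both strands, from 180 bases before it.

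Both strands were searched in the 36 promoters that matched 32 of the 35 members. ERSE was found in Calr, Creld2, Hsp90b1 and Hspa5, where 0.119% of all 32851 promoters in the table held it. The amino acid response element was found in Asns, Chac1, Herpud1, Nupr1, Slc7a11 and Trib3, against 3.97% of all promoters. ERSE-II was found in Herpud1 (0.0365% of all), the CRE in Ppp1r15a (1.79%), and κB in Aldh18a1, Atf5, Calr, Creld2, Edem1 and Eif2ak4 (8.46%). The unfolded protein response element TGACGTGG was in no member's window, against 0.676% of all promoters. These are matches of letters, not measured binding.

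Each library held 25.3 to 31.2 M mapped fragments, as estimated from the deposited values. Changes are given as differences of log2(FPKM + 0.5), tested with limma over all 18 libraries, with Benjamini-Hochberg adjustment over all genes tested, and a gene was called at an adjusted p under 0.05. Each test was repeated on FPM, the fragments of a gene per 1000000 fragments of the library. Fragments were recovered as FPKM times a curve of fragments per FPKM on transcript length. That curve was drawn from the confidence limits of loci with 1 assembled transcript. FPM is a measure that is not divided by the length of the assembled transcript. The 2 libraries of a condition had a median SD, over the members, of 0.0712 log2 units with FPKM and 0.0544 with recovered fragments. Over all genes tested it was 0.106 and 0.0634, so the shares of members and of all genes called are not matched for spread. Fibroblast markers summed to 3526 to 4845 FPKM, while Epcam, Cdh1, Krt5 and Krt14 of epithelium, Ptprc of leukocytes and Pecam1 of endothelium were listed at 0 in all libraries. The 6 leukocyte markers, of which Emr1 and Itgam were at 0 too, summed to 13.2 to 36.9 FPKM. Of the 4 endothelium markers Tek was at 0 too, while Cdh5 read 1.12 to 12.3 FPKM over all 18 libraries. Kdr was above 0 in 8 libraries, at up to 3.47 FPKM. In such bulk RNA, fewer cells with a transcript and less of it per cell cannot be told apart. The mRNA of Rela itself ranged from 156 to 187 FPKM in RelA(wt), 315 to 366 in RelA(TA2) and 174 to 211 in RelA(Ser276Ala).

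The 2 unstimulated RelA(TA2) libraries stood apart from each other in the recovered fragments of these genes. Leaving out Slc7a11, 8 of the other 34 members differed by over 1.5 times between them in recovered fragments (23.5%, against 11.9% of all genes tested), all higher in library 2: Ddit3, Cebpb, Nupr1, Ppp1r15a, Trib3, Chac1, Slc3a2 and Herpud1. Trib3 read 17.1 and 50.1 FPKM in libraries 1 and 2, Herpud1 28.7 and 72.0, and Nupr1 21.3 and 55.9. In each of the other 8 conditions at most 3 of the 34 members differed by as much in recovered fragments. By FPKM 9 of the 34 differed so in the unstimulated RelA(TA2) pair, and at most 4 in any other condition. That share was near the 23.8% of all genes tested that differed so by FPKM in this pair. Several results that rest on the RelA(TA2) 0 h level are therefore also given without library 2, a choice made after seeing the data. Because each gene's spread was estimated over all 18 libraries, this pair also enters the SE and p of comparisons that do not use it.

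The clearest change over time was a rise at 1 h followed by a fall to or below the starting level at 2 h in feedback genes of the integrated stress response. Averaged over the 3 lines, Ppp1r15a, Chac1, Herpud1, Ppp1r15b and, by FPKM alone, Atf6 rose at 1 h, and none of the 35 members fell. That was 5 of 35, or 14.3%, where 4.35% of all genes tested were called. With recovered fragments 12 rose and 1 fell (37.1%, against 15.9% of all genes). Leaving out 1 library gave 4 to 10 calls by FPKM, 10 without RelA(TA2) 0 h library 2. The median log2 difference was 0.08 over the members and -0.03 over all genes. At 2 h 8 members fell below the 0 h level (Chac1, Trib3, Herpud1, Ppp1r15a, Eif2ak3, Atf4, Slc7a5 and Eif2ak4) and Cebpb rose, together 25.7% of the members, where 8.74% of all genes were called. Recovered fragments gave 16 falls and 3 rises (54.3%, against 37.1%). Leaving out 1 library gave 8 to 15 calls by FPKM, 15 without RelA(TA2) 0 h library 1. The median log2 difference at 2 h was -0.14 over the members and -0.05 over all genes.

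Counted by libraries that did not overlap, 3 members (Ppp1r15a, Ppp1r15b and Mthfd2) had both 1 h libraries above both 0 h libraries in each of the 3 lines (8.57%, against 2.20% of all genes tested). Both 2 h libraries lay below both 0 h libraries in each line for 10 members (28.6%, against 8.06%): Eif2ak3, Atf4, Ppp1r15a, Trib3, Chac1, Shmt2, Slc7a5, Dnajb9, Herpud1 and Stc2. Both 2 h libraries lay below both 1 h libraries in each line for 15 members (42.9%, against 8.12%). These were the same genes without Stc2, together with Eif2ak4, Atf5, Nupr1, Ppp1r15b, Mthfd2 and Pdia4.

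**Figure D1:**
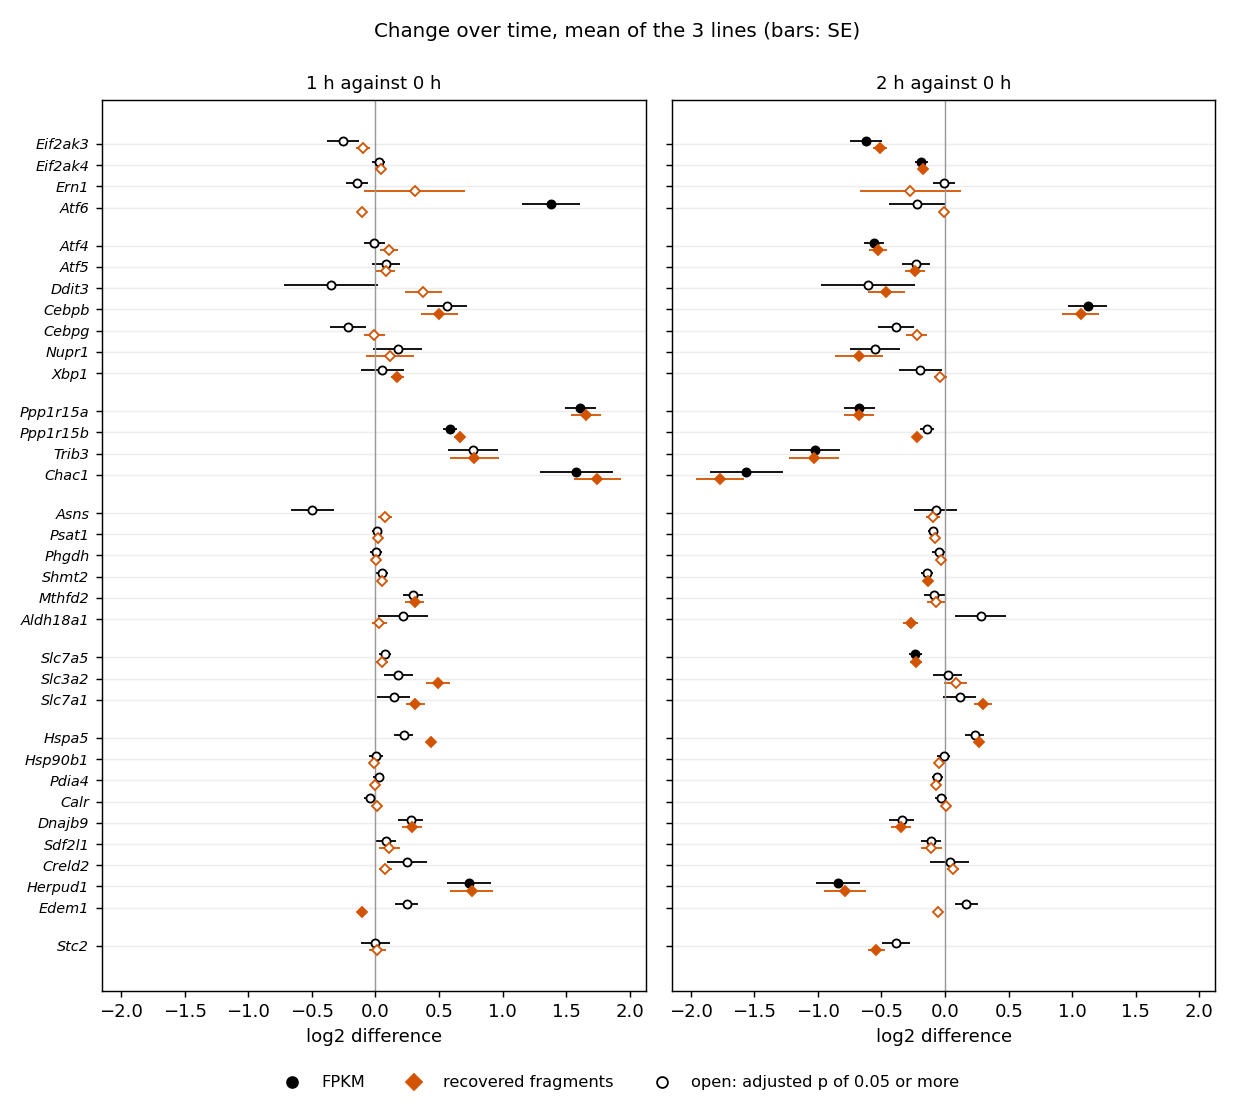
Log2 difference from 0 h, averaged over the 3 lines, for 34 members grouped by role (Slc7a11 is left out because it was listed at 0 in 8 libraries), at 1 h (left) and 2 h (right); circles are FPKM, diamonds recovered fragments, bars 1 SE, and filled symbols have an adjusted p under 0.05. Ppp1r15a, Ppp1r15b, Trib3, Chac1 and Herpud1 lie to the right at 1 h and to the left at 2 h, and Atf6 at 1 h is called by FPKM but lies just left of 0 in recovered fragments.

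Ppp1r15a (chr7:45522917-45526268, minus strand; mm10), which encodes GADD34, the inducible phosphatase subunit, was the member with the smallest adjusted p at 1 h. In RelA(wt) its FPKM was 17.3 and 18.1 at 0 h, 81.0 and 78.6 at 1 h and 12.2 and 17.0 at 2 h. In RelA(TA2) it read 21.5 and 35.3 at 0 h, 53.1 and 58.6 at 1 h and 12.4 and 13.2 at 2 h, and in RelA(Ser276Ala) 21.7 and 22.3 at 0 h, 80.6 and 63.8 at 1 h and 13.5 and 14.1 at 2 h. In every line both 1 h libraries were above, and both 2 h libraries below, both 0 h libraries. The log2 difference over the lines was 1.61 (SE 0.12, limma adjusted p = 1.37e-05) at 1 h and -0.68 (SE 0.12, limma adjusted p = 0.00643) at 2 h. From 1 h to 2 h it fell by 2.43 in RelA(wt), 2.09 in the RelA(TA2) line and 2.34 in the RelA(Ser276Ala) line on the log2 scale. Ppp1r15b (chr1:133131166-133139800, plus strand), the constitutive counterpart CReP, rose less. It had FPKM values of 15.8 and 14.3 at 0 h, 24.5 and 22.2 at 1 h and 14.2 and 14.4 at 2 h in RelA(wt), 17.2 and 18.2 at 0 h, 28.0 and 24.3 at 1 h and 14.5 and 14.5 at 2 h in RelA(TA2), and 17.2 and 17.1 at 0 h, 25.1 and 27.4 at 1 h and 16.6 and 15.9 at 2 h in RelA(Ser276Ala). The 1 h libraries stood above all others of their line, with a log2 difference of 0.59 (SE 0.05, limma adjusted p = 6.98e-05) at 1 h, while the 2 h value was -0.14 (SE 0.05, adjusted p = 0.147) and not called with FPKM by limma.

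Chac1 (chr2:119351242-119354327, plus strand), a glutathione-degrading enzyme induced by ATF4, had a lower 0 h level than Ppp1r15a, Ppp1r15b and Trib3 in RelA(wt) and RelA(Ser276Ala). FPKM values were 4.67 and 4.87 at 0 h, 29.7 and 38.7 at 1 h and 2.85 and 3.29 at 2 h in RelA(wt) and 6.84 and 6.58 at 0 h, 23.5 and 68.9 at 1 h and 2.77 and 2.55 at 2 h in RelA(Ser276Ala). In RelA(TA2) it started higher, at 14.4 and 36.0 at 0 h, 20.1 and 13.3 at 1 h and 3.40 and 1.88 at 2 h. The 1 h libraries of RelA(wt) and RelA(Ser276Ala) were above all others of those lines, whereas in RelA(TA2) the 0 h and 1 h libraries overlapped. The log2 difference was 1.58 (SE 0.29, limma adjusted p = 0.00866) at 1 h and -1.56 (SE 0.29, limma adjusted p = 0.00699) at 2 h. Trib3 (chr2:152337425-152344060, minus strand), a pseudokinase that restrains ATF4 and CHOP, had FPKM values of 23.7 and 22.9 at 0 h, 45.8 and 41.3 at 1 h and 14.7 and 16.1 at 2 h in RelA(wt). It read 17.1 and 50.1 at 0 h, 43.2 and 43.0 at 1 h and 10.2 and 10.2 at 2 h in RelA(TA2) and 25.5 and 24.0 at 0 h, 45.8 and 45.3 at 1 h and 13.1 and 11.2 at 2 h in RelA(Ser276Ala). RelA(TA2) 0 h library 2 was the highest of the 18, and without it the 1 h libraries did not overlap the 0 h libraries in any line. Its difference at 1 h was 0.77 (SE 0.20, adjusted p = 0.0602) with FPKM by limma, 0.78 (SE 0.19, adjusted p = 0.0174) with recovered fragments, and 1.02 (adjusted p = 3.42e-06) with FPKM once RelA(TA2) 0 h library 2 was left out. At 2 h it fell, by a log2 difference of -1.02 (SE 0.20, limma adjusted p = 0.00943). Without RelA(TA2) 0 h library 2 that difference was -0.77.

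**Figure D2:**
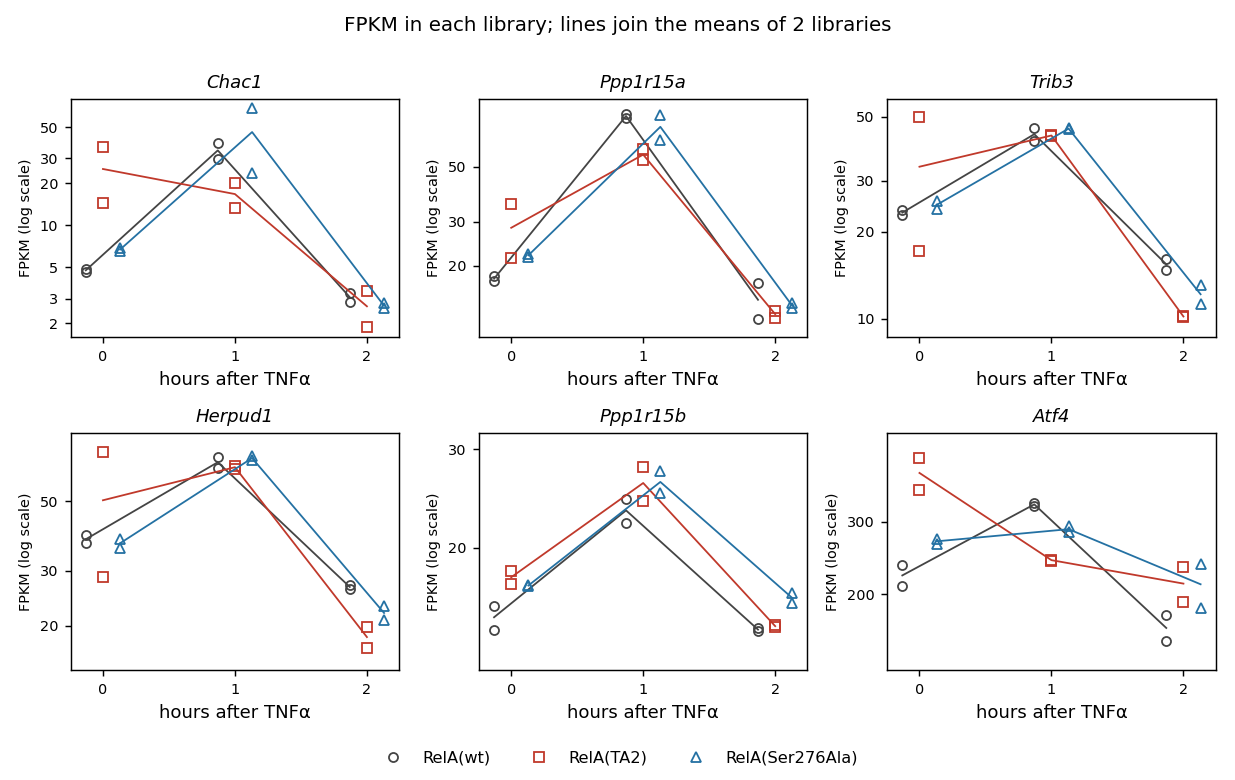
FPKM (vertical, log scale) against hours after TNFα (horizontal) for 6 members in each of the 18 libraries; each symbol is a library, shaped by line, and lines join the means of 2 libraries. The peak at 1 h and the low level at 2 h are shared by the lines for Ppp1r15a and Ppp1r15b, and the spread at 0 h in RelA(TA2) is visible for Chac1, Trib3 and Herpud1.

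Herpud1 (chr8:94386500-94395358, plus strand), an ER membrane protein that serves in ER-associated degradation, was also highest at 1 h and lowest at 2 h in RelA(wt) and RelA(Ser276Ala). Levels were 38.8 and 36.7 at 0 h, 69.4 and 63.9 at 1 h and 26.2 and 27.0 at 2 h (FPKM) in RelA(wt), 28.7 and 72.0 at 0 h, 64.9 and 63.6 at 1 h and 19.8 and 16.9 at 2 h in RelA(TA2) and 38.0 and 35.4 at 0 h, 67.5 and 69.8 at 1 h and 23.1 and 20.8 at 2 h in RelA(Ser276Ala). Outside RelA(TA2) the 0 h, 1 h and 2 h libraries did not overlap. The log2 difference was 0.73 (SE 0.17, limma adjusted p = 0.0396) at 1 h and -0.84 (SE 0.17, limma adjusted p = 0.0135) at 2 h. The 1 h call was kept in 2 of 12 fits that each left out 1 library (adjusted p from 6.39e-06 to 0.0950), the 2 being those without either RelA(TA2) 0 h library. Without library 2 of that condition the difference was 0.95 at 1 h and -0.62 at 2 h. Dnajb9, an ER co-chaperone, had its highest mean at 1 h and its lowest at 2 h in every line, but was called only with recovered fragments, at 0.29 (SE 0.08, adjusted p = 0.0270) at 1 h and -0.34 (SE 0.08, adjusted p = 0.00499) at 2 h by limma.

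Among the transcription factors, Atf4 (chr15:80255184-80257541, plus strand) was the most abundant. It had FPKM values of 209 and 235 at 0 h, 333 and 328 at 1 h and 177 and 153 at 2 h in RelA(wt), 359 and 430 at 0 h, 241 and 243 at 1 h and 233 and 191 at 2 h in RelA(TA2) and 265 and 273 at 0 h, 292 and 283 at 1 h and 185 and 237 at 2 h in RelA(Ser276Ala). Its 2 h libraries were below its 0 h libraries in every line, and the log2 difference at 2 h was -0.56 (SE 0.08, limma adjusted p = 0.00162). At 1 h the lines went apart, as described further on, and the mean difference was -0.01 (SE 0.08, adjusted p = 0.985) by limma. Cebpb (chr2:167688915-167690418, plus strand), a C/EBP factor that partners ATF4 and also takes part in inflammatory signalling, was the member that rose at 2 h. Its levels were 16.5 and 15.4 at 0 h, 23.1 and 25.9 at 1 h and 39.3 and 43.4 at 2 h (FPKM) in RelA(wt), 15.9 and 30.6 at 0 h, 28.3 and 29.8 at 1 h and 42.8 and 59.3 at 2 h in RelA(TA2) and 18.9 and 17.7 at 0 h, 32.6 and 27.8 at 1 h and 39.6 and 28.1 at 2 h in RelA(Ser276Ala), so that no 2 h library overlapped the 0 h libraries of its line, although RelA(TA2) 0 h library 2 was near the 1 h level. The log2 difference was 1.12 (SE 0.15, limma adjusted p = 0.00133) at 2 h and 0.56 (SE 0.15, adjusted p = 0.0783) at 1 h. Ddit3, which encodes CHOP, was not called by FPKM at either time by limma at -0.35 (SE 0.37, adjusted p = 0.744) for 1 h, where its direction depended on the measure. In recovered FPM it read 63.5 and 65.9 at 0 h, 98.3 and 97.4 at 1 h and 54.7 and 54.3 at 2 h in RelA(wt), and the 2 h difference over the lines was -0.46 (SE 0.14, adjusted p = 0.0277). Without RelA(TA2) 0 h library 2 its 1 h difference in recovered fragments was 0.57 (adjusted p = 1.78e-06), against 0.38 (SE 0.14, adjusted p = 0.110) with it.

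Nupr1, a stress-induced chromatin protein, and Atf5, an ATF4-related factor, were called at 2 h only with recovered fragments (Nupr1 -0.68 (SE 0.19, adjusted p = 0.0159), Atf5 -0.24 (SE 0.08, adjusted p = 0.0323), limma). The 2 h libraries of both were below the 1 h libraries in each line. Cebpg, a C/EBP partner of ATF4, and Xbp1, the substrate of IRE1, were called at neither time by FPKM with limma (Cebpg -0.39 (SE 0.14, adjusted p = 0.132), Xbp1 -0.19 (SE 0.17, adjusted p = 0.552) at 2 h). Xbp1 was at 42.3 and 99.0 FPKM in the 2 RelA(wt) 0 h libraries, the second of which held 2 assembled transcripts, where recovered FPM were 93.2 and 96.7, and by that measure its 1 h difference was 0.17 (SE 0.05, adjusted p = 0.0400).

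Of the 4 sensors and kinases, Eif2ak3 and Eif2ak4 fell at 2 h, by log2 differences of -0.63 (SE 0.13, limma adjusted p = 0.0115) and -0.19 (SE 0.05, limma adjusted p = 0.0475). Eif2ak3, the ER-resident kinase PERK, had FPKM values of 15.9 and 15.2 at 0 h, 16 and 15.3 at 1 h and 12.1 and 11.4 at 2 h in RelA(wt), 14.6 and 14.2 at 0 h, 11.3 and 12 at 1 h and 9.999 and 8.31 at 2 h in RelA(TA2) and 25.5 and 14 at 0 h, 14 and 13.0 at 1 h and 9.20 and 11.4 at 2 h in RelA(Ser276Ala), with the 2 h libraries lowest in each line. Eif2ak4, the amino acid sensor GCN2, moved by less, with FPKM values of 8.30 and 8.21 at 0 h, 8.90 and 8.44 at 1 h and 6.83 and 7.05 at 2 h in RelA(wt), 8.07 and 8.55 at 0 h, 8.04 and 7.90 at 1 h and 6.98 and 6.74 at 2 h in RelA(TA2) and 7.46 and 6.93 at 0 h, 7.39 and 7.78 at 1 h and 6.96 and 6.76 at 2 h in RelA(Ser276Ala). Its call was kept in 1 of 12 fits that each left out 1 library (adjusted p from 0.0385 to 0.105), namely without RelA(TA2) 0 h library 1, while with recovered fragments the difference was -0.17 (SE 0.03, adjusted p = 7.32e-04). Ern1, which encodes IRE1, was called at neither time (FPKM -0.14 (SE 0.09, adjusted p = 0.520) at 1 h and -0.01 (SE 0.09, adjusted p = 0.983) at 2 h, limma) and ranged over all libraries from 4.97 to 7.91 FPKM. In FPM it ranged from 17.5 to 60.8, and the 2 libraries of 5 of the 9 conditions differed by over 1.5 times, as at 0 h in RelA(wt) (18 and 56.8 FPM), where FPKM was 6.0 and 7.01.

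The apparent rise of Atf6, the membrane-bound sensor that becomes a transcription factor, was not seen in recovered fragments. By FPKM it read 14.4 and 14.5 at 0 h, 42.1 and 78.4 at 1 h and 14 and 13.7 at 2 h in RelA(wt), 13.2 and 15.3 at 0 h, 70.8 and 159 at 1 h and 13.5 and 13.6 at 2 h in RelA(TA2) and 31.1 and 15.6 at 0 h, 13.5 and 13.8 at 1 h and 15.6 and 14.5 at 2 h in RelA(Ser276Ala), with a log2 difference of 1.38 (SE 0.23, limma adjusted p = 0.00457) at 1 h. The 5 highest libraries, from 31.1 FPKM upward, each held 2 assembled Atf6 transcripts, as did 2 RelA(Ser276Ala) libraries at 13.5 and 15.6 FPKM, and the other 11 held 1. In FPM the same libraries were level, at 115 and 116 at 0 h and 101 and 111 at 1 h in RelA(wt) and 102 and 118 and 105 and 102 in RelA(TA2), and the difference was -0.11 (SE 0.04, adjusted p = 0.0933) by limma. The FPKM value of Atf6 at 1 h is therefore not read as a change here.

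**Figure D3:**
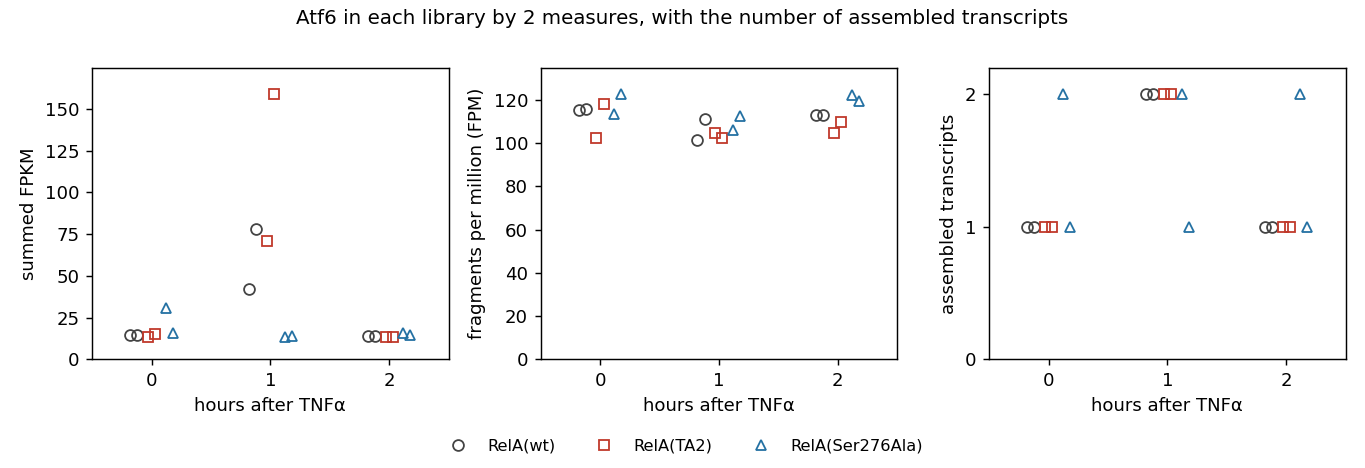
Atf6 in each of the 18 libraries by hours after TNFα (horizontal): summed FPKM (left), recovered FPM (middle) and the number of assembled transcripts (right), with symbols by line. FPKM is high in both 1 h libraries of RelA(wt) and RelA(TA2) and in 1 unstimulated RelA(Ser276Ala) library, all of which have 2 transcripts, while FPM stay between 101 and 122.

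The 6 enzymes of amino acid and one-carbon supply moved little. None was called at 1 h or 2 h by FPKM with limma, where 2 and 2 had an unadjusted p under 0.05, and their resting levels were high, Psat1 (phosphoserine aminotransferase) having a median over the libraries of 240 FPKM and Phgdh, the first enzyme of serine synthesis, 227. Mthfd2, the mitochondrial folate enzyme, came nearest at 1 h, at 0.30 (SE 0.08, adjusted p = 0.0845) with FPKM by limma and 0.31 (SE 0.07, adjusted p = 0.0146) with recovered fragments. It had FPKM values of 78.8 and 77.3 at 0 h, 91.6 and 91.0 at 1 h and 75.9 and 74.7 at 2 h in RelA(wt), 71.1 and 107 at 0 h, 110 and 109 at 1 h and 83.9 and 79.5 at 2 h in RelA(TA2) and 92.2 and 92.0 at 0 h, 115 and 118 at 1 h and 90.0 and 81.9 at 2 h in RelA(Ser276Ala). Shmt2, the mitochondrial serine hydroxymethyltransferase, was at -0.14 (SE 0.04, adjusted p = 0.0197) at 2 h in recovered fragments, and Aldh18a1, of proline synthesis, at -0.27 (SE 0.06, adjusted p = 0.00407), where its FPKM difference of 0.28 (SE 0.20, adjusted p = 0.459) had the other sign. Aldh18a1 held 3 assembled transcripts in 4 libraries, which were its 4 highest by FPKM, and 2 in the others. Asns, asparagine synthetase and a classical ATF4 target, was at -0.50 (SE 0.17, adjusted p = 0.171) with FPKM and 0.07 (SE 0.06, adjusted p = 0.455) with recovered fragments at 1 h by limma.

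Of the transporters, Slc7a5, the light chain of the LAT1 neutral amino acid exchanger, fell at 2 h, by a log2 difference of -0.23 (SE 0.05, limma adjusted p = 0.0148). It had FPKM values of 77.2 and 77.3 at 0 h, 80.5 and 72.7 at 1 h and 65.6 and 68.2 at 2 h in RelA(wt), 64.9 and 73.9 at 0 h, 79.3 and 71.5 at 1 h and 57.8 and 59.3 at 2 h in RelA(TA2) and 74.0 and 72.1 at 0 h, 79.5 and 79.1 at 1 h and 64.0 and 58.8 at 2 h in RelA(Ser276Ala). Slc3a2, the heavy chain shared by LAT1 and the cystine transporter, was the most abundant of the group and was called only at 1 h with recovered fragments, at 0.49 (SE 0.09, adjusted p = 0.00320), against 0.18 (SE 0.11, adjusted p = 0.542) with FPKM by limma. Slc3a2 had FPKM values of 112 and 88.2 at 0 h, 122 and 133 at 1 h and 115 and 119 at 2 h in RelA(wt), 105 and 147 at 0 h, 103 and 123 at 1 h and 136 and 115 at 2 h in RelA(TA2) and 84.9 and 119 at 0 h, 123 and 131 at 1 h and 94.4 and 83.4 at 2 h in RelA(Ser276Ala), without a shared order by that measure. In FPM both 1 h libraries were above all others of their line, at 326 and 324 in RelA(wt), 346 and 339 in RelA(TA2) and 311 and 333 in RelA(Ser276Ala), the highest of the others being 286, 297 and 235. Slc7a1, the cationic amino acid transporter, was at 0.31 (SE 0.07, adjusted p = 0.0111) at 1 h and 0.30 (SE 0.07, adjusted p = 0.00755) at 2 h in recovered fragments. Slc7a11, the cystine transporter, was listed at 0 in 8 of the 18 libraries and assembled as up to 6 pieces in others, so no change is given. It was listed at 0 and 0 FPKM at 0 h, 0 and 0 at 1 h and 9.90 and 9.71 at 2 h in RelA(wt), at 11.5 and 5.36 at 0 h, 0 and 5.47 at 1 h and 0 and 0 at 2 h in RelA(TA2) and at 2.14 and 4.86 at 0 h, 9.20 and 3.28 at 1 h and 0 and 6.04 at 2 h in RelA(Ser276Ala).

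The ER chaperones Hsp90b1 (GRP94), Pdia4 and Calr (calreticulin) help fold proteins in the ER lumen. They differed from 0 h by log2 values between -0.06 and 0.03 at 1 h and 2 h. None of them was called by FPKM or recovered fragments with limma. Hspa5 (chr2:34772090-34776529, plus strand), the chaperone BiP, rose in recovered fragments. In FPM it read 921 and 896 at 0 h, 1136 and 1221 at 1 h and 1022 and 1109 at 2 h in RelA(wt), 683 and 751 at 0 h, 1030 and 1063 at 1 h and 918 and 901 at 2 h in RelA(TA2) and 784 and 718 at 0 h, 965 and 1010 at 1 h and 890 and 861 at 2 h in RelA(Ser276Ala), so that in every line the 1 h and 2 h libraries were above the 0 h libraries. The difference was 0.44 (SE 0.04, adjusted p = 6.19e-06) at 1 h and 0.27 (SE 0.04, adjusted p = 1.89e-04) at 2 h by this measure, and with FPKM 0.22 (SE 0.07, adjusted p = 0.162) and 0.23 (SE 0.07, adjusted p = 0.0827) by limma. Sdf2l1 and Creld2, small ER-resident factors of folding, were called at neither time by either measure (Creld2 0.08 (SE 0.05, adjusted p = 0.346) at 1 h in recovered fragments, limma). Edem1, which marks misfolded glycoproteins for removal, went opposite ways at 1 h, at 0.25 (SE 0.09, adjusted p = 0.200) with FPKM and -0.11 (SE 0.02, adjusted p = 0.00841) with recovered fragments by limma. Stc2, stanniocalcin 2, a secreted glycoprotein induced by ATF4, was lower at 2 h than at 0 h in both libraries of every line, at -0.38 (SE 0.11, adjusted p = 0.0600) with FPKM by limma and -0.54 (SE 0.07, adjusted p = 1.08e-04) with recovered fragments.

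For RelA(wt) the differences use its own libraries, while the SE and p use the spread over all 18 libraries. At 1 h 4 members rose and none fell by limma (11.4%, against 1.60% of all genes tested): Ppp1r15a (2.14, adjusted p = 2.11e-04), Ppp1r15b (0.62, adjusted p = 0.00581), Chac1 (2.71, adjusted p = 0.0210) and, by FPKM alone, Atf6 (1.96, adjusted p = 0.0340). Trib3 and Herpud1 had both 1 h libraries above both 0 h libraries but were called by neither measure. With recovered fragments 5 rose, Atf4 and Hspa5 taking the place of Atf6 (14.3%, against 6.71%). The FPKM calls of Ppp1r15a and Ppp1r15b were kept in all 4 fits that left out 1 library of RelA(wt) at 0 h or 1 h. That of Atf6 was lost without either 0 h library or 1 h library 2 (adjusted p up to 0.183), and that of Chac1 was kept in none (adjusted p from 0.0617 to 0.105), although its log2 difference stayed between 2.52 and 2.89. At 2 h 1 member was called, Cebpb (1.35, adjusted p = 0.0298) (2.86%, against 1.86%), a call lost without any 1 of the 4 libraries (adjusted p from 0.0912 to 0.131). Recovered fragments gave 3 rises, 1 of them Slc7a11, and 3 falls, of Eif2ak3, Eif2ak4 and Stc2 (17.1%, against 12.7%). Over these fits the number of members called by FPKM at 1 h ran from 2, without library 2 of either time, to 5, without 1 h library 1. All p-values are limma's, adjusted over all genes.

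Within RelA(TA2), 3 members rose at 1 h, Ppp1r15a (1.00, adjusted p = 0.0376), Ppp1r15b (0.54, adjusted p = 0.0128) and, by FPKM alone, Atf6 (2.86, adjusted p = 0.00336), and 1 fell, Atf4 (-0.70, adjusted p = 0.0280) (11.4%, against 2.00%). With recovered fragments 5 rose and 1 fell (17.1%, against 10.1%). Without 0 h library 2, Atf4 was at -0.57 (adjusted p = 0.136) and no longer called by FPKM, while Trib3 (1.31 (adjusted p = 1.46e-04)), Herpud1 (1.15 (adjusted p = 4.21e-04)) and Mthfd2 (0.62 (adjusted p = 0.00151)) then rose. The FPKM call of Ppp1r15a was lost without 0 h library 1 or either 1 h library (adjusted p up to 0.164), that of Ppp1r15b without 1 h library 1 (0.0735), and that of Atf4 also without either 1 h library (up to 0.136). At 2 h 5 members fell, Chac1 (-2.94, adjusted p = 0.00880), Atf4 (-0.89, adjusted p = 0.00538), Ppp1r15a (-1.08, adjusted p = 0.0190), Trib3 (-1.49, adjusted p = 0.0394) and Herpud1 (-1.29, adjusted p = 0.0401), and 1 rose, Cebpb (1.17, adjusted p = 0.0369) (17.1%, against 4.05%). Recovered fragments gave 16 falls and 3 rises (54.3%, against 26.5%). By FPKM the 2 h difference of Trib3 shrank to -0.73 and that of Herpud1 to -0.63 once 0 h library 2 was left out. Without 0 h library 2, Chac1 was at -2.29 (adjusted p = 0.0539) and Ppp1r15a at -0.73 (adjusted p = 0.0793) by FPKM, neither called. Leaving out a 2 h library also cost calls, library 2 those of Chac1, Cebpb, Herpud1, Ppp1r15a and Trib3 and library 1 those of Herpud1, Ppp1r15a and Trib3, and 0 h library 1 that of Cebpb (adjusted p of Cebpb up to 0.202). The call of Atf4 at 2 h was kept in all 4 fits. The number of members called ran from 1 (without 1 h library 1) to 6 (without 0 h library 2) at 1 h, and from 1 (without 2 h library 2) to 8 (without 0 h library 1) at 2 h, with limma's p adjusted over all genes.

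Within RelA(Ser276Ala), 3 members rose at 1 h, Ppp1r15a (1.68, adjusted p = 0.00199), Ppp1r15b (0.60, adjusted p = 0.00788) and Chac1 (2.50, adjusted p = 0.0327) (8.57%, against 1.50%), and recovered fragments added Hspa5 (11.4%, against 5.99%). The Chac1 call was lost without either 0 h library or 1 h library 2 (adjusted p up to 0.148), and the other 2 were kept in all 4 fits. At 2 h no member was called by FPKM with limma, with 8 at an unadjusted p under 0.05, where 0.979% of all genes were called. Recovered fragments gave 5 falls (Eif2ak3, Atf4, Chac1, Slc7a5 and Stc2) and 1 rise, of Hspa5 (17.1%, against 9.77%). Without 0 h library 2 the FPKM fit called 1 member at 2 h, and without 0 h library 1 or 1 h library 2 it called 2 at 1 h. The 1 h and 2 h comparisons of a line share its 0 h libraries.

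The log2 differences between 1 h and 2 h do not use the 0 h libraries. Their SE and p do, through the spread estimated over all 18 libraries. By FPKM 7 members fell from 1 h to 2 h in RelA(wt) and none rose (20%, against 4.22% of all genes tested). In RelA(TA2) 6 fell (17.1%, against 2.79%) and in RelA(Ser276Ala) 5 (14.3%, against 2.07%). Ppp1r15a, Ppp1r15b, Trib3, Chac1 and Herpud1 fell in all 3 lines. Atf4 was called in RelA(wt), and the FPKM call of Atf6 in RelA(wt) and RelA(TA2) was not found in recovered fragments. Chac1 fell by 3.27, 2.47 and 3.69 on the log2 scale in the RelA(wt), RelA(TA2) and RelA(Ser276Ala) lines, and Herpud1 by 1.31, 1.78 and 1.63. Recovered fragments gave 12 falls and 1 rise (Slc7a11) in RelA(wt) (23.5% of all genes called), 14 falls in RelA(TA2) (19.4%) and 12 in RelA(Ser276Ala) (17.0%). Leaving out 1 library gave 4 to 7, 3 to 6 and 3 calls by FPKM in RelA(wt), RelA(TA2) and RelA(Ser276Ala), the fewest in RelA(wt) without any library but 1 h library 1, in RelA(TA2) without 1 h library 2, and in RelA(Ser276Ala) without any of the 4. The median log2 difference of the members was -0.24, -0.20 and -0.24, against -0.02, 0.00 and -0.03 over all genes. Here and in the other comparisons, the fits without 1 library left out only libraries of the compared conditions.

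Whether the mutations changed these responses was asked by comparing each mutant's change over time with that of RelA(wt). At 1 h the change of Atf4 differed between RelA(TA2) and RelA(wt), by -1.27 (SE 0.20, limma adjusted p = 0.0216): Atf4 was 209 and 235 FPKM at 0 h and 333 and 328 at 1 h in RelA(wt), both 1 h libraries above, and 359 and 430 and 241 and 243 in RelA(TA2), both 1 h libraries below. It was the 1 member of 35 called (2.86%), where 0.340% of all genes tested were called. Without RelA(TA2) 0 h library 2 the difference was -1.14 (adjusted p = 0.0372), and the call was kept in 7 of 8 fits that each left out 1 library (adjusted p from 0.0101 to 0.0509), the exception being RelA(wt) 0 h library 1. With the library number of each line as a block, a pairing that the labels do not state, it was not called (adjusted p = 0.124 with FPKM and 0.0518 with recovered fragments, limma). With recovered fragments it was -1.12 (SE 0.18, adjusted p = 0.0129), and Chac1 was then also called, at -2.61 (SE 0.46, adjusted p = 0.0215), against -3.17 (SE 0.70, adjusted p = 0.122) with FPKM, so that 2 members were called where 1.70% of all genes were. Without RelA(TA2) 0 h library 1, 6 members were called by FPKM. The lines differed in Atf4 before stimulation, RelA(TA2) against RelA(wt) at 0 h being 0.82 (SE 0.14, limma adjusted p = 0.00907), and 0.69 (adjusted p = 0.0557) without library 2. At 1 h the same comparison was -0.45 (SE 0.14, adjusted p = 0.128) by limma.

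No other difference in a member's response was called by FPKM with limma. For RelA(TA2) at 2 h 4 members had an unadjusted p under 0.05 and 0.226% of all genes were called, while recovered fragments called 1 member, Slc7a11, which was listed at 0 in some of these libraries (0.291% of all genes). For RelA(Ser276Ala) 2 members at 1 h and 1 at 2 h had an unadjusted p under 0.05, with 0.218% and 0.170% of all genes called, and recovered fragments called none (0.235% and 0.275% of all genes). Leaving out 1 library gave up to 3 calls by FPKM for RelA(TA2) at 2 h (without its 0 h library 1), up to 1 for RelA(Ser276Ala) at 1 h (without its 0 h library 2, or RelA(wt) 0 h or 1 h library 1), and 0 at 2 h. The difference in the 1 h change of Ppp1r15a was -1.14 (SE 0.30, adjusted p = 0.204) for RelA(TA2) and -0.46 (SE 0.30, adjusted p = 1.00) for RelA(Ser276Ala) by limma. For scale, the 6 NF-κB response genes checked, Nfkbia, Tnfaip3, Cxcl1, Ccl2, Irf1 and Lif, all rose at 1 h in each line, with a median log2 change of 3.77 in RelA(wt), 3.01 in the RelA(TA2) line and 3.26 in the RelA(Ser276Ala) line. The 1 h change of Cxcl1 differed from that in RelA(wt) by -1.96 in RelA(TA2) (limma adjusted p = 0.0499975) and -2.58 in RelA(Ser276Ala) (limma adjusted p = 0.0115). For Irf1 it differed by -2.67 in RelA(Ser276Ala) (limma adjusted p = 0.00109). No other 1 h difference of these 6 genes was called by FPKM.

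Between lines 5 members were called in each mutant by FPKM. Of these, 4 in RelA(TA2) and 3 in RelA(Ser276Ala) were among the 9 ER chaperones, folding and degradation factors. Averaged over the 3 times, RelA(TA2) had higher Pdia4, Calr, Edem1 and Sdf2l1 and lower Stc2 than RelA(wt) (14.3% of members, where 11.8% of all genes tested were called). RelA(Ser276Ala) had higher Sdf2l1, Phgdh, Hsp90b1, Pdia4 and Psat1 and nothing lower (14.3%, against 12.6%). The members' share was thus near that of all genes in both comparisons. With recovered fragments 10 were higher and 4 lower in RelA(TA2) (14 of 35, against 40.3% of all genes), and 13 higher and 4 lower in RelA(Ser276Ala) (48.6%, against 43.7%). Leaving out 1 library gave 2 (without RelA(wt) 0 h library 2) to 10 (without RelA(TA2) 0 h library 1) calls by FPKM in RelA(TA2), and 2 to 5 in RelA(Ser276Ala), the fewest without library 2 of RelA(wt) at 0 h or 2 h, RelA(Ser276Ala) 0 h library 1 or RelA(Ser276Ala) 2 h library 2. Both comparisons use the RelA(wt) libraries. Rela mRNA itself was higher in RelA(TA2), as given earlier, and of 9 fibroblast markers 3 (Col1a1, Col1a2 and Fn1) were higher in RelA(TA2) and 3 (Col1a1, Pdgfrb and Thy1) lower in RelA(Ser276Ala) by FPKM. With recovered fragments 3 were higher and 4 lower in RelA(TA2), and 7 lower in RelA(Ser276Ala). Of 3 leukocyte markers tested, Cd68 (log2 difference -0.83) and Cd14 (-0.47) were lower in RelA(TA2), and of the nerve and fat markers Tubb3 was lower in RelA(TA2) (-0.35) and RelA(Ser276Ala) (-0.97), and Fabp4, listed at 0 in 1 of the 18 libraries, in RelA(TA2). The part of Rela and of these markers in the line differences was not tested.

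**Figure D4:**
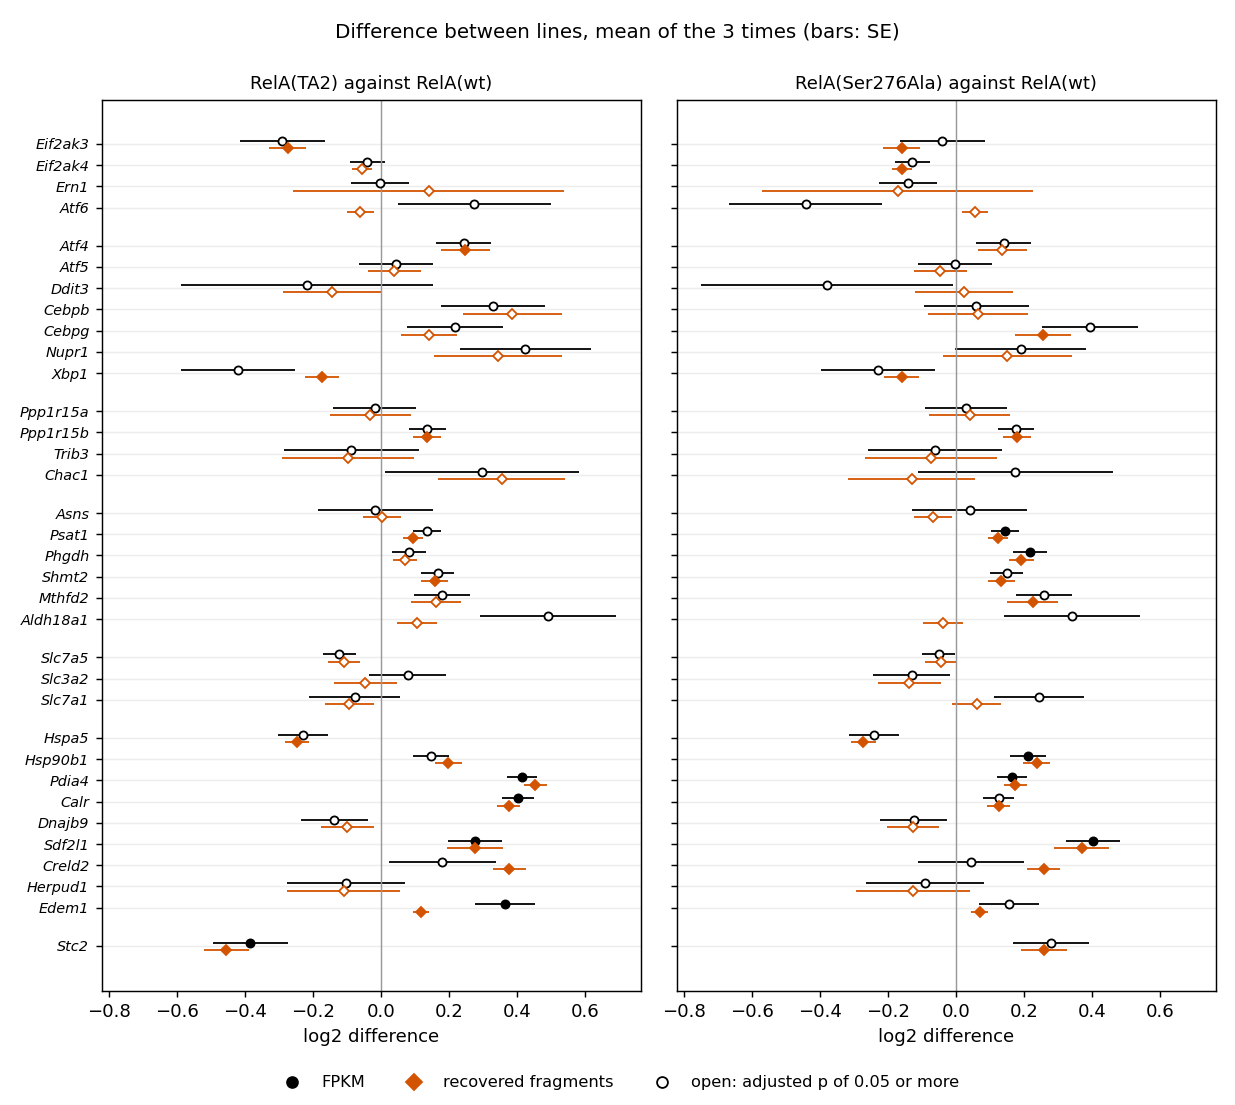
Log2 difference of each mutant line from RelA(wt), averaged over the 3 times, for 34 members grouped by role, RelA(TA2) on the left and RelA(Ser276Ala) on the right; circles are FPKM, diamonds recovered fragments, bars 1 SE, and filled symbols have an adjusted p under 0.05. Pdia4 and Calr lie farthest right with short bars in RelA(TA2), and Hspa5 lies left of 0 in both panels.

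Calr (chr8:84842088-84846931, minus strand) ranged over the 6 libraries of a line from 495 to 547 (median 517) FPKM in RelA(wt), 646 to 730 (median 687) in RelA(TA2) and 538 to 593 (median 564) in RelA(Ser276Ala). By time it was 496 and 547 at 0 h, 495 and 503 at 1 h and 530 and 538 at 2 h in RelA(wt) and 655 and 730 at 0 h, 646 and 704 at 1 h and 701 and 674 at 2 h in RelA(TA2). All RelA(TA2) libraries were above all RelA(wt) libraries, by 0.40 (SE 0.05, limma adjusted p = 2.95e-04), and the call was kept without any 1 library. Pdia4 (chr6:47796141-47813512, minus strand), a protein disulfide isomerase, ranged from 97.3 to 108 (median 103) FPKM in RelA(wt), 133 to 144 (median 136) in RelA(TA2) and 108 to 126 (median 115) in RelA(Ser276Ala). It was higher in RelA(TA2) by 0.41 (SE 0.04, limma adjusted p = 1.96e-04) and in RelA(Ser276Ala) by 0.16 (SE 0.04, limma adjusted p = 0.0344), the second call kept in 1 of 12 fits that each left out 1 library (adjusted p from 0.00915 to 0.0796), namely without RelA(Ser276Ala) 0 h library 2. Sdf2l1, part of a chaperone complex with BiP, ranged from 9.13 to 12.8 (median 10.7) FPKM in RelA(wt), 11.8 to 15.7 (median 13.0) in RelA(TA2) and 12.1 to 17.0 (median 14.7) in RelA(Ser276Ala). Its differences were 0.28 (SE 0.08, limma adjusted p = 0.0489) and 0.40 (SE 0.08, limma adjusted p = 0.00804). The first was kept in 2 of 12 fits that each left out 1 library (adjusted p from 0.0253 to 0.115), the 2 being those without RelA(TA2) 0 h library 1 or 2 h library 2, and the second in all 12.

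Hsp90b1 ranged from 373 to 424 (median 388) FPKM in RelA(wt) and 444 to 471 (median 454) in RelA(Ser276Ala), without overlap, and the difference was 0.21 (SE 0.05, limma adjusted p = 0.0227). Its call was kept in 7 of 12 fits that each left out 1 library (adjusted p from 0.0179 to 0.0619) and lost without RelA(wt) 1 h library 1, RelA(wt) 0 h library 2, RelA(wt) 2 h library 2, RelA(Ser276Ala) 0 h library 1 or RelA(Ser276Ala) 2 h library 2. In RelA(TA2) Hsp90b1 was at 0.15 (SE 0.05, adjusted p = 0.106) by FPKM and 0.20 (SE 0.04, adjusted p = 0.00237) by recovered fragments with limma. Edem1 was higher in RelA(TA2) by 0.36 (SE 0.09, limma adjusted p = 0.0228) with FPKM but by only 0.12 (SE 0.02, adjusted p = 0.00238) with recovered fragments, and its FPKM call was kept in 9 of 12 fits that each left out 1 library (adjusted p from 0.00529 to 0.0603), lost without RelA(wt) 0 h library 2, RelA(wt) 1 h library 2 or RelA(TA2) 2 h library 2. Creld2 was higher with recovered fragments alone, at 0.38 (SE 0.05, adjusted p = 1.13e-04) in RelA(TA2) and 0.26 (SE 0.05, adjusted p = 0.00126) in RelA(Ser276Ala). Of the 4 members with an ERSE match, recovered fragments thus placed Calr, Creld2 and Hsp90b1 higher, and Hspa5 lower, in both mutant lines.

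Hspa5 was lower in both mutant lines in recovered fragments. In FPM it ranged from 896 to 1221 (median 1065) in RelA(wt), 683 to 1063 (median 910) in RelA(TA2) and 718 to 1010 (median 876) in RelA(Ser276Ala). At each of the 3 times both libraries of either mutant were below both RelA(wt) libraries. The difference was -0.25 (SE 0.04, adjusted p = 2.56e-04) in RelA(TA2) and -0.27 (SE 0.04, adjusted p = 1.13e-04) in RelA(Ser276Ala) in recovered fragments, and -0.23 (SE 0.07, adjusted p = 0.0769) and -0.24 (SE 0.07, adjusted p = 0.0605) with FPKM by limma, which did not call it.

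**Figure D5:**
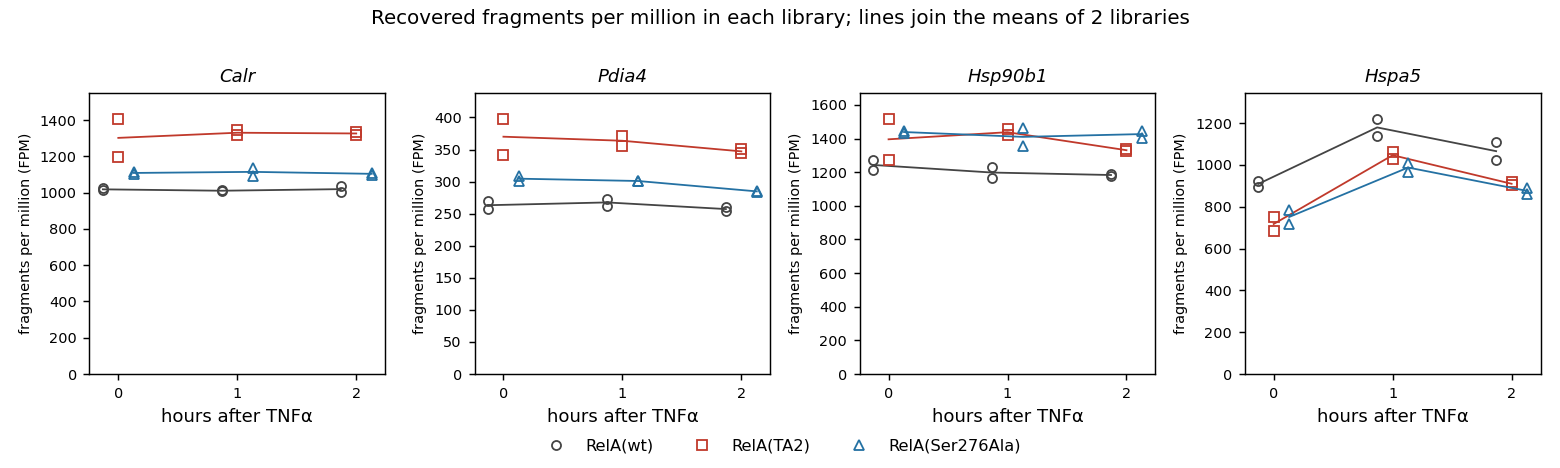
Recovered FPM (vertical, from 0) against hours after TNFα (horizontal) for 4 ER chaperones in each of the 18 libraries, with symbols by line and lines joining the means of 2 libraries. Calr and Pdia4 are highest in RelA(TA2) at each time, whereas Hspa5 is highest in RelA(wt) at each time and higher at 1 h than at 0 h in all lines.

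Outside the ER, Phgdh ranged from 204 to 232 (median 217) FPKM in RelA(wt) and 225 to 281 (median 252) in RelA(Ser276Ala), by 0.22 (SE 0.05, limma adjusted p = 0.0154), a call kept without any 1 library. By time Psat1 was 231 and 229 at 0 h, 240 and 217 at 1 h and 221 and 214 at 2 h in RelA(wt) and 258 and 250 at 0 h, 258 and 262 at 1 h and 231 and 238 at 2 h in RelA(Ser276Ala). Psat1 ranged from 214 to 240 (median 225) and 231 to 262 (median 254) FPKM, by 0.15 (SE 0.04, limma adjusted p = 0.0407), a call kept in 1 of 12 fits that each left out 1 library (adjusted p from 0.0295 to 0.0977), namely without RelA(wt) 1 h library 1. All 6 enzymes had a positive FPKM difference in RelA(Ser276Ala). In recovered fragments 4 of them were higher, each called, namely Psat1, Phgdh, Shmt2 and Mthfd2, while Asns and Aldh18a1 were not higher. In Stc2 the FPKM was 8.55 and 10.8 at 0 h, 9.98 and 8.54 at 1 h and 6.82 and 8.17 at 2 h in RelA(wt), and 6.67 and 8.06 at 0 h, 7.0 and 8.61 at 1 h and 5.01 and 4.89 at 2 h in RelA(TA2). Stc2 ranged from 6.82 to 10.8 (median 8.54) FPKM in RelA(wt), 4.89 to 8.61 (median 6.84) in RelA(TA2) and 9.18 to 13.6 in RelA(Ser276Ala). It was lower in RelA(TA2), with a difference of -0.38 (SE 0.11, limma adjusted p = 0.0499), a call kept in 2 of 12 fits that each left out 1 library (adjusted p from 0.0471 to 0.121), the 2 being those without RelA(wt) 0 h library 1 or RelA(TA2) 0 h library 2, and with recovered fragments -0.45 (SE 0.07, adjusted p = 2.93e-04). In RelA(Ser276Ala) Stc2 was at 0.26 (SE 0.07, adjusted p = 0.00879) in recovered fragments, the other direction, and 0.28 (SE 0.11, adjusted p = 0.138) with FPKM by limma.

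Before stimulation alone, RelA(TA2) had higher Chac1 (2.14 (SE 0.50, adjusted p = 0.0432)), Atf4, Pdia4 and Calr than RelA(wt) by limma (11.4% of members, against 3.49% of all genes), and recovered fragments called 11 (31.4%, against 21.7%). Chac1 was 14.4 and 36.0 FPKM in RelA(TA2), both libraries above the 4.67 and 4.87 of RelA(wt), and without RelA(TA2) 0 h library 2 the difference was 1.50 (adjusted p = 0.214). For Trib3 the direction itself turned on that library, from 0.33 (SE 0.34, adjusted p = 0.723) with it to -0.43 (adjusted p = 0.0773) without it, and for Herpud1 from 0.27 (SE 0.30, adjusted p = 0.753) to -0.39 (adjusted p = 0.121), none called by FPKM with limma. Over the 3 times, leaving it out moved Trib3 in RelA(TA2) from -0.09 (SE 0.20, adjusted p = 0.839) to -0.34 (adjusted p = 0.00379) and Herpud1 from -0.10 (SE 0.17, adjusted p = 0.776) to -0.32 (adjusted p = 0.00542), and Sdf2l1 was then at 0.23 (adjusted p = 0.0988). RelA(Ser276Ala) had no member called at 0 h by FPKM with limma, 7 having an unadjusted p under 0.05 and 5 being called with recovered fragments (14.3%), where 1.96% of all genes were called by FPKM and 15.7% with recovered fragments, a share near that of the members.

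Other genes of the pathways were followed by lists. Of 22 other ATF4 and CHOP targets that were tested, 5 rose at 1 h over the 3 lines and none fell (22.7%, against 4.35% of all genes), led by Atf3 (3.21, SE 0.15, adjusted p = 3.81e-07), a stress-induced ATF factor, Nfil3 (log2 difference 1.1, adjusted p = 0.00295), a bZIP factor, and Gadd45a (1.51, SE 0.25, adjusted p = 0.00514), a DNA damage and stress gene, with limma. At 2 h 5 fell and Atf3 was higher (27.3%, against 8.74%), and Slc38a2 (-0.53, SE 0.09, adjusted p = 0.00328), an amino acid transporter, Sesn2 (log2 difference -1.0, adjusted p = 0.00545), sestrin 2, and Gpt2 (-0.68, SE 0.13, adjusted p = 0.00903), an aminotransferase, had the smallest p of those that fell, by limma. The 2 h rise of Atf3 was called within RelA(TA2), at 1.72 (adjusted p = 0.00549), while RelA(wt) was at 0.15 (adjusted p = 0.925) and RelA(Ser276Ala) at 0.22 (adjusted p = 0.841), and the difference between RelA(TA2) and RelA(wt) in that change was 1.57 (adjusted p = 0.253) by limma. Averaged over the times Atf3 was lower in RelA(TA2) (-1.65) and RelA(Ser276Ala) (-0.69) than in RelA(wt). Within lines at 2 h, Sesn2 and Gpt2 were called in RelA(TA2), and Slc38a2 in RelA(wt) and RelA(TA2). Their change from 0 h to 2 h had no called difference between a mutant line and RelA(wt) by FPKM. Slc38a2 averaged over the times was higher in RelA(Ser276Ala) than in RelA(wt) (0.30, limma adjusted p = 0.0413). The list's median log2 difference was 0.09 at 1 h and -0.37 at 2 h, and recovered fragments gave 6 rises and 1 fall at 1 h and 2 rises and 11 falls at 2 h (31.8% and 59.1%, against 15.9% and 37.1% of all genes). Of 20 aminoacyl-tRNA synthetases, another ATF4-linked group, none was called at 1 h by either measure with limma, 1 having an unadjusted p under 0.05 by FPKM, and at 2 h Mars fell (log2 difference -0.31, adjusted p = 0.0298), or 9 with recovered fragments (5.00% and 45.0%, against 8.74% and 37.1% of all genes). Among 10 genes of eIF2, its exchange factor eIF2B and its other kinases, Eif2ak2 (-0.47, SE 0.12, adjusted p = 0.0486), the double-stranded RNA kinase PKR, fell at 1 h over the lines and none was called at 2 h by FPKM with limma. The fall was called within RelA(Ser276Ala), at -1.12 (adjusted p = 0.0190), while RelA(wt) was at -0.17 (adjusted p = 0.923) and RelA(TA2) at -0.13 (adjusted p = 0.894), and the difference between RelA(Ser276Ala) and RelA(wt) in that change was -0.95 (adjusted p = 0.561) with FPKM and -1.80 (adjusted p = 1.24e-06) with recovered fragments by limma.

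Of 27 other ER folding, quality control and degradation genes, none was called at 1 h by either measure with limma, 2 having an unadjusted p under 0.05 by FPKM, and at 2 h 1 rose and 1 fell (Ssr1, log2 difference 0.56, which recovered fragments did not call, and Fkbp2), or 7.41% against 8.74% of all genes. Fkbp2, a prolyl isomerase, was listed at 0 in 2 of the 18 libraries, so no fold is given. Between lines 5 were higher and 3 lower in RelA(TA2), led by Pdia6 (0.50, SE 0.04, adjusted p = 4.23e-05), a disulfide isomerase, Selk (-0.30, SE 0.05, adjusted p = 0.00338) and Sec61a1 (0.16, SE 0.04, adjusted p = 0.0195) once Fkbp2 was set aside, and 3 higher and 1 lower in RelA(Ser276Ala), led by Selk (-0.58, SE 0.05, adjusted p = 5.67e-05), Pdia6 (0.40, SE 0.04, adjusted p = 2.23e-04) and Fkbp11 (0.62, SE 0.17, adjusted p = 0.0356), by limma. Fkbp11 was not called in recovered fragments there (log2 difference 0.13). These were 29.6% of the list in RelA(TA2), against 11.8% of all genes, and 14.8% in RelA(Ser276Ala), against 12.6%. Recovered fragments gave 14 higher and 6 lower in RelA(TA2) (74.1%, against 40.3%), and 7 and 5 in RelA(Ser276Ala) (44.4%, against 43.7%). For the neighbouring stress responses, at 1 h and 2 h over the lines 1 and 1 of 9 cytosolic heat shock genes rose, 0 and 1 of 8 sterol genes, and 0 and 2 of 8 hypoxia genes, and none of these 3 lists had a fall by FPKM with limma.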

How the data were processed

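RNA of 18 samples was sequenced as poly(A)-selected TruSeq libraries. Per the submitters' processing notes the authors used CASAVA 1.8.2, TopHat2 2.0.5 with Bowtie2 2.0.0.7, and Cufflinks 2.0.2 on mm10, and the deposited files hold FPKM with confidence limits for each transcript assembled in each library. Because transcripts were assembled library by library, a transcript split or joined in 1 library moves its gene's FPKM, and its length enters the recovered fragments.

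From these files FPKM was summed per gene name. Fragment numbers were first taken from FPKM and its upper limit, only for loci with 1 assembled transcript. Of these values below 500, 88.9% to 90.2% came out within 0.02 of a whole number. A curve of fragments per FPKM on transcript length was drawn from them in each library. The recovered fragments that were tested are each transcript's FPKM times this curve, summed per gene. The whole-number share was not computed for these tested values. Both measures were tested with limma 3.58.1 (R 4.3.3), with 1 mean per condition, a variance trend and 9 residual degrees of freedom, on log2 values after 0.5 FPKM was added, for genes that reached 1 FPKM in 2 or more libraries. The fit was tested on simulated data. Of 509 genes that shared an assembled locus with a neighbour, none was a member.

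Samples were grouped by the labels, and the study's methods call the 2 replicates of a condition independent without saying that they were separate cultures, so p-values measure only the spread between these libraries. The members, roles and gene lists were chosen with earlier results of these data known. All 35 members were accounted for, and values are given by library or by range for those called in some comparison and for the most abundant of each role, and of the other lists up to 3 called genes with the smallest p were named. Promoters were searched for the motifs on both strands. Alternatives tried were other added amounts, filters, scalings, isoform choice, variance models, sample sets, a replicate block, recovered fragments and leaving out each library.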

Additional observations from a re-analysis of the deposited data

Results flagged for a closer look

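1 result was marked for a closer look because the change from 0 h to 1 h differed between 2 lines by a test of the difference itself. Atf4 mRNA went from 209 and 235 FPKM at 0 h to 333 and 328 at 1 h in RelA(wt), and from 359 and 430 to 241 and 243 in RelA(TA2), so that all libraries of the first line were higher, and all of the second lower, at 1 h. The difference between the changes was -1.27 (SE 0.20, limma adjusted p = 0.0216). The RelA(TA2) libraries at 0 h, of which library 2 stood apart in other members, enter this value, and without that library it was -1.14 (adjusted p = 0.0372) by limma. With the library number of each line as a block it was not called (limma adjusted p = 0.124, or 0.0518 with recovered fragments). Mutation, line and Rela mRNA level cannot be told apart here.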

How the results depend on the processing

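Numbers of members called are given for each alternative where they moved by over 1.5 times, with 1 exception named further on. No share of all genes called is given beside them, nor beside the fits without 1 library. Their size is therefore not read as a trait of the members. The calls for single members are 43 in all. Adding 0.1 or 1 FPKM before the logarithm kept 42 of these calls each, a filter of at least 5 FPKM kept 43, median-of-ratios scaling 37 and quantile normalization 39, and no count moved by over 1.5 times under them. Without a filter 3 members were called in RelA(TA2) against RelA(wt). With the highest isoform alone, 2 were called in RelA(wt) at 2 h. Without a variance trend the counts were 3 in RelA(TA2) and 3 in RelA(Ser276Ala) against RelA(wt). Fitting the compared groups only, which leaves 2 libraries per group and few degrees of freedom, kept 20 of 43 calls, with 1 member in RelA(wt) at 1 h, 0 and 0 in RelA(TA2) at 1 h and 2 h, 0 in RelA(Ser276Ala) at 1 h, 1 for the RelA(TA2) difference in the 2 h change, and 4, 3 and 0 between 1 h and 2 h in RelA(wt), RelA(TA2) and RelA(Ser276Ala).

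Recovered fragments gave 13 and 19 calls at 1 h and 2 h over the lines, 6, 19 and 6 at 2 h in RelA(wt), RelA(TA2) and RelA(Ser276Ala), 14 and 17 between lines, 2 and 1 for the RelA(TA2) differences at 1 h and 2 h, and 13, 14 and 12 between 1 h and 2 h. They reversed Atf6 alone, to -0.12 in RelA(wt), -0.088 in RelA(TA2) and -0.11 over the lines at 1 h. Also leaving out RelA(TA2) 0 h library 2, chosen after seeing the data, gave 20 and 20 over the lines, 10 and 11 in RelA(wt), 14 and 16 in RelA(TA2), 9 and 14 in RelA(Ser276Ala), 19 and 19 between lines, 4 for the RelA(TA2) difference at 1 h, 19, 24 and 20 between 1 h and 2 h, and Atf6 at -0.12 in RelA(wt) and -0.073 over the lines. The cause of these moves was not tested.

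In no line did same-numbered libraries deviate together at every pair of times, with correlations over genes from -0.0264 to 0.0630 with FPKM and -0.0767 to 0.242 with recovered fragments, the highest, 0.191 and 0.242, being those of RelA(Ser276Ala) at 2 h with 0 h and with 1 h. As not every pair was over 0.1, the numbers were not used as pairs. A replicate block within each line kept 23 of 43 calls and gave 2 calls in RelA(wt) and 1 in RelA(TA2) at 1 h, 2 and 0 between lines, 0 for the RelA(TA2) difference at 1 h and 3 between 1 h and 2 h in RelA(Ser276Ala). With recovered fragments and the replicate block the counts were 12 and 20 over the lines, 6, 17 and 2 at 2 h in the lines, 0 for the RelA(TA2) difference at 1 h, 14, 15 and 12 between 1 h and 2 h, and Atf6 was at -0.12, -0.088 and -0.11.

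Leaving out 1 library at a time, with the lone library of a condition assumed to vary like the others, gave 4 to 10 and 8 to 15 calls over the lines at 1 h and 2 h. It gave 2 to 5 and 0 to 1 in RelA(wt), 1 to 6 and 1 to 8 in RelA(TA2), and 2 to 3 and 0 to 1 in RelA(Ser276Ala). Between lines it gave 2 to 10 in RelA(TA2) and 2 to 5 in RelA(Ser276Ala), for the differences in change 1 to 6 and 0 to 3 in RelA(TA2) and 0 to 1 and 0 in RelA(Ser276Ala), and between 1 h and 2 h 4 to 7, 3 to 6 and 3 in the 3 lines. In these ranges only libraries of the compared conditions were left out, so they do not cover the others, which also enter the spread. With 2 libraries per condition, small changes of the less abundant members such as Ern1, Stc2 and Sdf2l1 are poorly resolved.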
